A study of Mus musculus with 12 samples.

Results

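The genes examined were 5 neuropeptide genes of the arcuate nucleus and 5 receptor genes through which leptin and some of these peptides act. Their levels were compared between 6 control pups and 6 pups exposed to modified maternal separation (MMS). The genes were chosen by name, as the feeding peptides Agrp, Npy, Pomc, Cartpt and Ghrh and the receptors Lepr, Mc3r, Mc4r, Npy1r and Npy5r. They made up 10 of the 43280 gene rows of the count table. Ghrh, which drives growth hormone secretion, was included as an arcuate peptide gene that signals to the pituitary. All 12 animals were male C57/Bl6 mice at postnatal day 6 (P6), from litters cut to 4 males, and the labels name no transgene or drug. The MMS sessions, 1 a day from P4 to P6, combined time apart from the dam, with warmth provided, and repeated interruption of the pup's righting. Control pups were males of the same litters that were not put through these sessions. MMS pups were killed directly after the P6 session, so the levels are those of a pup that had just been apart from the dam. Each library came from the dissected hypothalamus of 1 pup. The labels do not give the litter of a library, so littermates may lie in both groups, which the tests do not account for.

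In the arcuate nucleus, at the base of the hypothalamus beside the third ventricle, 2 sets of neurons have opposite effects on feeding. One makes agouti-related peptide (Agrp) and neuropeptide Y (Npy) and drives feeding. The other makes pro-opiomelanocortin (Pomc), which is cut to alpha-melanocyte-stimulating hormone, and in part also the CART prepropeptide (Cartpt), and restrains it. The melanocortin receptors Mc3r and Mc4r respond to the Pomc product and are blocked by Agrp, Npy acts through receptors that include Npy1r and Npy5r, and both sets of neurons read leptin from fat through Lepr. Agrp is made almost nowhere else in the brain, whereas Npy and Cartpt are also made in many other neurons. In neonatal rodents the projections of these arcuate neurons are still growing and food intake does not yet depend on leptin as in the adult.

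Library totals ran from 3218777 to 6560620 counts. Values are given as CPM, the reads of a gene relative to the TMM-scaled library total, and a fold change is MMS relative to control. In a library made from the 3' end a molecule gives about 1 read position whatever its length, so CPM can be set side by side between genes without division by length. On the first principal component, which held 30.4% of the variance, MMS 2 and MMS 4 scored 57.8 and 46.3 and the remaining 10 libraries between -14.4 and -3.04. Group differences of these peptide and receptor genes from edgeR are therefore given with and without them. Those of other genes and of lists are given with them only. Checked against its markers, the tissue held the lateral hypothalamic peptide genes Pmch (195 to 929 CPM) and Hcrt (25.1 to 184 CPM) in every library. The arcuate markers Kiss1 and Bsx had no count in any library, whereas the arcuate markers Gal (51.7 to 97.8 CPM), Th (13.9 to 44.0 CPM) and Tac2 (6.89 to 22.8 CPM) were present in every library.

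The promoters of 4 of the peptide genes are shown because Npy varied with Pomc and with Ghrh from pup to pup, whereas no relation of Cartpt to them passed its test. Each sequence is the 250 bases before a RefSeq transcript start in the mouse build GRCm38.p6, written 5′ to 3′ on the strand of the gene. Capitals mark matches to the TATA box TATAAA, to the homeodomain core TAATTA, which reads alike on both strands, and to the cAMP response core TGACG. This last motif appears as CGTCA where it lay on the other strand.
Npy, chr6:49822460-49822709, plus strand: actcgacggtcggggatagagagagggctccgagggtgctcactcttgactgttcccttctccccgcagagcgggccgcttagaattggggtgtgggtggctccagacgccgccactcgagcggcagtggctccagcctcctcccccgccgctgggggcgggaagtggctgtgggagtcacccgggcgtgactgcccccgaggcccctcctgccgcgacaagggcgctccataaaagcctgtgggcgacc
Pomc, chr12:3954695-3954944, plus strand: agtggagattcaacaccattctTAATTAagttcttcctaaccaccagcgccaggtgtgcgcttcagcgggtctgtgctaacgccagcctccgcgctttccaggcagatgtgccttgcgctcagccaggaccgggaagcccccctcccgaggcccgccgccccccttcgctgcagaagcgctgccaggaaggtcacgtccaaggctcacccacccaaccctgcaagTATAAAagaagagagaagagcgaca
Ghrh, chr2:157337427-157337676, minus strand: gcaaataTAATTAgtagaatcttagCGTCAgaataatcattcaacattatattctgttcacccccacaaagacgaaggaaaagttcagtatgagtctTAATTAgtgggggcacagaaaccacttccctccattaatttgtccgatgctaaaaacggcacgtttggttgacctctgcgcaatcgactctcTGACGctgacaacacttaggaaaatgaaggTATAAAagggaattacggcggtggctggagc
Cartpt, chr13:99900684-99900933, minus strand: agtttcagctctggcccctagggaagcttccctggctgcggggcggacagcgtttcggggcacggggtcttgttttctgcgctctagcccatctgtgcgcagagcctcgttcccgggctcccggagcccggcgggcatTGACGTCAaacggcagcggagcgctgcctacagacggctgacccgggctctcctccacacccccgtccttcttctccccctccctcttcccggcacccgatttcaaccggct
Positions are those of the first base of a match, counted back from -1 next to the transcript start. TATAAA lay at -25 in Pomc and at -31 in Ghrh, and was present in 12.4% of the 32851 promoter windows of the same length. TAATTA lay at -228 in Pomc and at -243 and -153 in Ghrh (4.84% of all windows). TGACG lay at -225 and -61 in Ghrh and, as the overlapping pair that makes up TGACGTCA, at -112 and -109 in Cartpt (17.8% of all windows). The Npy window held none of these, and of the 7 motifs searched on both strands it held only CCAAT, at -166 (33.8% of all windows). The others searched were the E-box CANNTG (66.2%), which of the 4 windows shown Pomc and Cartpt held, and the STAT motif TTCNNNGAA (7.02%) and the FOXO motif GTAAACA (3.17%), which none of the members' windows held. Npy had none of these exact strings in common with Pomc or Ghrh in the windows shown. Near matches were not searched, so CATAAA close to the transcript start of Npy was not counted as a TATA box. RefSeq windows were found for 8 of the 10 genes, all but Agrp and Mc4r. Ghrh has another RefSeq start, whose window (chr2:157346656-157346905, minus strand) held TGACG at -18 and no TATAAA or TAATTA.

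Agrp, the peptide most restricted to these neurons, was present at very different levels in pups of the same group. Control libraries 1 to 6 held 17, 2.72, 29.0, 3.21, 25.5 and 34.3 CPM. MMS libraries 1 to 6 held 20.8, 0, 18.8, 0.709, 26.3 and 2.58 CPM. In 7 libraries, 4 of them controls and 3 MMS, Agrp lay between 17 and 34.3 CPM, and in the other 5 (Control 2, Control 4, MMS 2, MMS 4 and MMS 6) it was at or below 3.21 CPM, with no library in between. MMS 2 had no Agrp read at all. A count of 0 in that library allows up to 0.806 CPM (3 counts), so the highest library, Control 6, was at least 42.6-fold higher. These limits cover counting error only. Over the controls alone the highest library was 12.6-fold above the lowest. The 5 low libraries had totals from 3218777 to 5344080 counts and the other 7 from 3384141 to 6560620, so they did not separate by depth. In the GENCODE annotation Agrp (chr8:105566698-105637393, minus strand) overlaps other genes, among them Ctcf and Ripor1 on the opposite strand. The strand setting of the counting is not given in the sources used here, so reads of these genes and of Agrp may not be fully separated.

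Npy was the most abundant of the 10 genes by median and was low in the same libraries. The controls held 98.6, 58.4, 204, 67.8, 225 and 143 CPM, and the MMS libraries 151, 33.6, 195, 34.1, 117 and 83.4 CPM. The 5 libraries lowest in Agrp were also the 5 lowest in Npy. Between the highest and the lowest library Npy differed 6.69-fold, with 125 to 1456 reads per library (chr6:49822710-49829507, plus strand), and over the controls alone 3.84-fold.

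Pomc, the precursor of the melanocortins, was at 11.8, 20.7, 35.9, 12.6, 41.7 and 31.6 CPM in the controls and at 24.3, 8.06, 41.8, 3.19, 22.9 and 14.2 CPM in the MMS libraries. Its lowest 5 libraries shared 4 with those of Agrp, and its range was 13.1-fold over all libraries and 3.52-fold over the controls. Ghrh was at 7.96, 6.52, 17.6, 12.4, 18.8 and 11.8 CPM in the controls and at 14.0, 2.42, 22.7, 4.79, 14.9 and 12.2 CPM in the MMS libraries. Its range was 9.39-fold, and 2.89-fold over the controls. For both genes MMS 2 and MMS 4 were the lowest libraries and MMS 3 was the highest, so the MMS group held both extremes.

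Cartpt behaved differently. Its controls held 85.7, 75.0, 60.9, 60.3, 74.7 and 40.5 CPM and its MMS libraries 48.5, 41.4, 53.3, 55.7, 57.7 and 65.1 CPM, a range of 2.12-fold. All 6 MMS libraries lay below the control median, although Control 6 was the lowest library of all, so the groups overlapped.

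**Figure D1:**
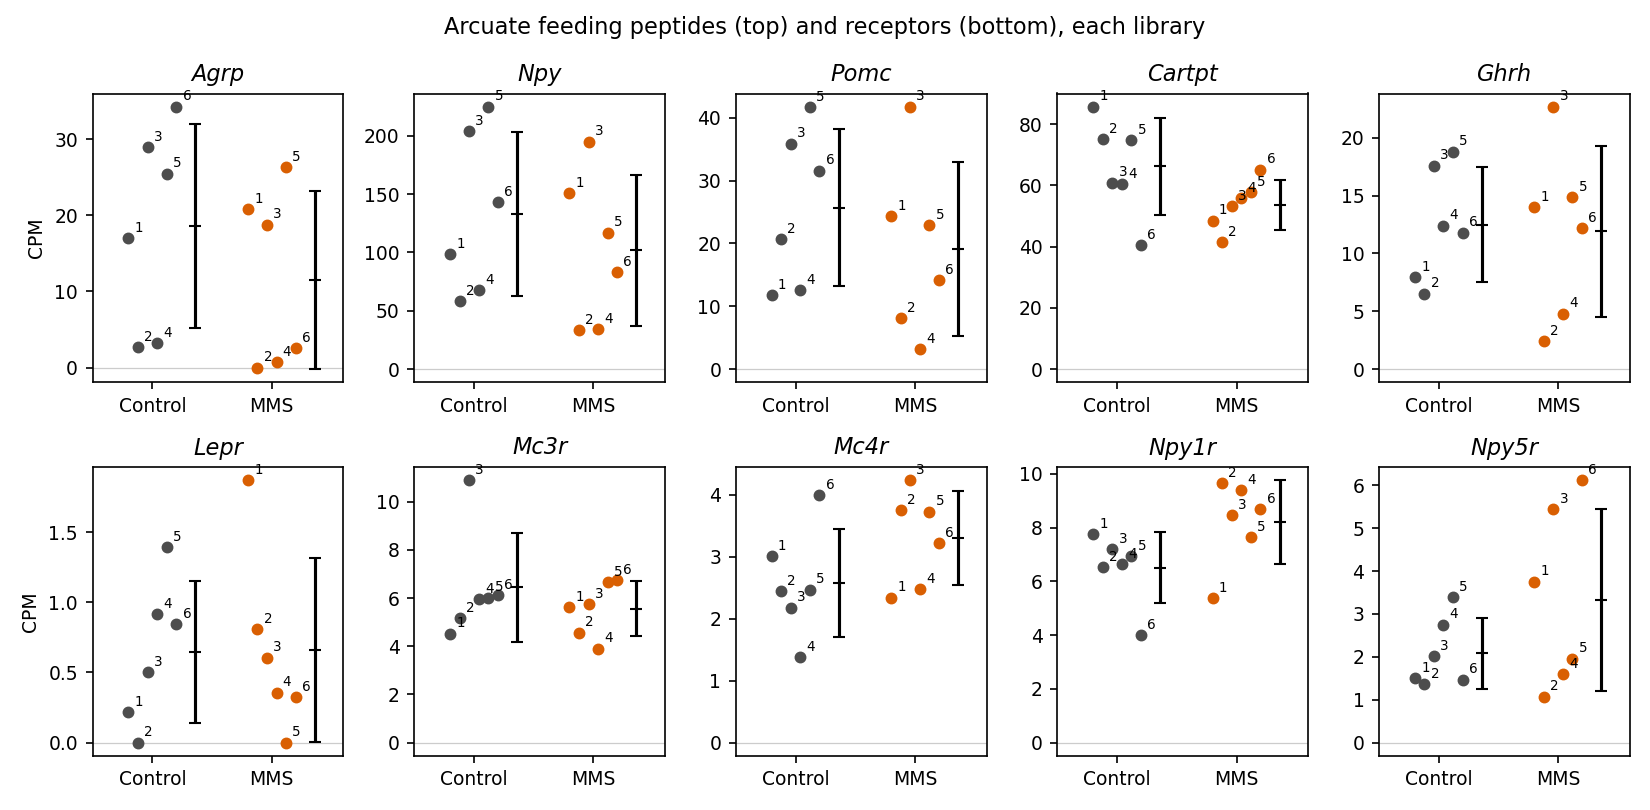
CPM of the 10 genes in each library (points, numbered by replicate; grey, control; orange, MMS), with the mean and SD of each group (bars, n = 6 per group) and a separate vertical axis for each gene. Agrp separates into libraries at or above 17 CPM and libraries at or below 3.21 CPM in both groups, and no gene has groups that do not overlap.

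Whether MMS altered these transcripts was tested with edgeR over the whole table. None of the peptide genes passed the test. Mean Agrp was 18.6 ± 13.4 CPM in controls against 11.5 ± 11.7 CPM after MMS (mean ± SD of 6 pups here and below), which gave -0.70 ± 0.91 (SE) as log2 fold change (edgeR adjusted p = 0.816). Npy was at 133 ± 70.1 and 102 ± 64.8 CPM (log2 fold change -0.39 ± 0.52, edgeR adjusted p = 0.822). Pomc was at 25.7 ± 12.5 and 19.1 ± 13.8 CPM (-0.46 ± 0.53, edgeR adjusted p = 0.79). For these 3 genes the 95% confidence interval reached from well below to above 0, from -2.72 to 1.32 for Agrp, from -1.53 to 0.76 for Npy and from -1.64 to 0.71 for Pomc. As folds of the control level these intervals ran from 0.152 to 2.50 for Agrp, from 0.346 to 1.69 for Npy and from 0.321 to 1.64 for Pomc, and so held both lower and higher levels.

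Ghrh was at 12.5 ± 4.96 CPM in controls against 11.9 ± 7.36 CPM in MMS pups (log2 fold change -0.12 ± 0.42, edgeR adjusted p = 0.938). Cartpt had the narrowest interval of the peptides. It was at 66.2 ± 15.8 CPM in controls against 53.6 ± 8.1 CPM in MMS pups, a log2 fold change of -0.30 ± 0.15 with an interval from -0.62 to 0.01 (edgeR adjusted p = 0.556).

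Without MMS 2 and MMS 4 the peptide differences shrank or turned. The log2 fold change was -0.11 for Agrp, -0.02 for Pomc, 0.03 for Npy, 0.32 for Ghrh and -0.24 for Cartpt, with edgeR adjusted p between 0.964 and 0.999. The lower means of Agrp, Npy and Pomc in the MMS group thus rested largely on these 2 libraries, whereas that of Cartpt was of like size without them.

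The receptor transcripts were scarce. Npy1r, a Gi-coupled receptor for Npy, was the most abundant of them. It was at 7.75, 6.52, 7.21, 6.65, 6.94 and 4.00 CPM in the controls and at 5.38, 9.67, 8.48, 9.40, 7.65 and 8.70 CPM in the MMS libraries. In 4 of the 6 MMS libraries it lay above every control, and in MMS 1 below all controls but 1. The group means were 6.51 ± 1.31 and 8.21 ± 1.56 CPM, a log2 fold change of 0.33 ± 0.22 that did not pass the test (95% interval -0.13 to 0.79, edgeR adjusted p = 0.635) and was 0.20 without MMS 2 and MMS 4.

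Of the melanocortin receptors, Mc3r, which is found on the arcuate neurons themselves, ranged from 4.52 to 10.9 CPM in controls (median 5.99) and from 3.90 to 6.76 CPM in MMS pups (median 5.69). Its means were 6.45 ± 2.27 and 5.55 ± 1.14 CPM (log2 fold change -0.24 ± 0.26, edgeR adjusted p = 0.772). Mc4r, through which melanocortins restrain feeding in neurons of the paraventricular nucleus, ranged from 1.38 to 4.00 CPM in controls and from 2.34 to 4.24 CPM in MMS pups. Its means were 2.58 ± 0.878 and 3.30 ± 0.758 CPM (log2 fold change 0.34 ± 0.32, edgeR adjusted p = 0.736). With 6 to 19 reads of Mc4r per library, its interval ran from -0.32 to 1.00. Without MMS 2 and MMS 4 the log2 fold change was -0.07 for Mc3r and 0.39 for Mc4r.

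The other 2 receptors had too few reads for the count filter and were tested one at a time with an exact permutation test of CPM. Npy5r, a second Npy receptor, lies beside Npy1r on chromosome 8 on the opposite strand (chr8:66679965-66688128 against chr8:66697192-66706792) without overlapping it, and had 4 to 22 reads per library. It was at 1.51, 1.36, 2.01, 2.75, 3.39 and 1.47 CPM in the controls and at 3.75, 1.07, 5.45, 1.6, 1.96 and 6.12 CPM in the MMS libraries. Its mean was 1.24 CPM higher in MMS pups, with 3 MMS libraries above every control and 1 below (exact permutation test, two-sided, p = 0.216, where the smallest p that 6 against 6 allows is 0.00216). Lepr, the leptin receptor, had 37 reads in all and none in Control 2 and MMS 5. Its means of 0.644 ± 0.507 and 0.660 ± 0.654 CPM differed by 0.0158 CPM (exact permutation test, two-sided, p = 0.972).

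Of the 8 genes tested in edgeR, 0 passed an adjusted p of 0.05, the share over all 13104 genes tested also being 0%, and 0 had an unadjusted p under 0.05. Over all genes 4.4% were lower and 4.68% higher at that unadjusted p. Among the 8 genes 6 had a lower mean and 2 a higher mean in MMS pups, with a median log2 fold change of -0.27, while the median of all genes was 0.000909 and 49.9% of them were lower. The control and MMS libraries overlapped in each of the 10 genes, and did not overlap in 0.389% of all genes tested.

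**Figure D2:**
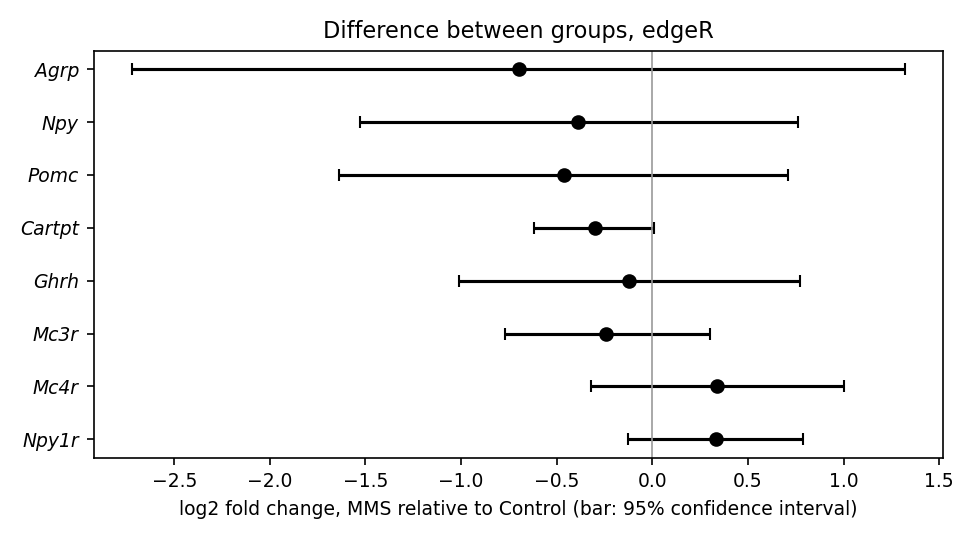
Log2 fold change of MMS relative to control for the 8 genes tested in edgeR (points) with 95% confidence intervals (bars), n = 6 per group. Every interval includes 0, and those of Agrp, Npy and Pomc are wider than those of Cartpt and the receptors.

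Apart from Cartpt, the peptide genes varied more from pup to pup than most genes did. The spread was measured as the SD of log2 CPM within groups, pooled over both groups, and ranked over the 13104 genes. Agrp had an SD of 2.09, rank 3 of all genes. The SD was 1.05 for Pomc (rank 85), 0.95 for Npy (rank 132) and 0.90 for Ghrh (rank 173), so 1.32% of genes varied more than Ghrh. Cartpt (0.31), Mc3r (0.35), Mc4r (0.37) and Npy1r (0.30) lay near the median of all genes, 0.30. In the 6 controls alone, where neither MMS 2 nor MMS 4 enters, the ranks were 7 for Agrp (SD 1.56), 188 for Npy (0.81), 248 for Pomc (0.76) and 819 for Ghrh (0.58). The peptide genes of other hypothalamic neurons given here also differed in spread, all below Agrp, Pomc, Npy and Ghrh in the pooled SD. The SD was 0.85 for Avp (vasopressin), 0.78 for Hcrt (orexin), 0.61 for Pmch (melanin-concentrating hormone) and 0.19 for Sst (somatostatin). In the controls alone Avp (0.95) and Hcrt (1.07) exceeded Npy but not Agrp.

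**Figure D3:**
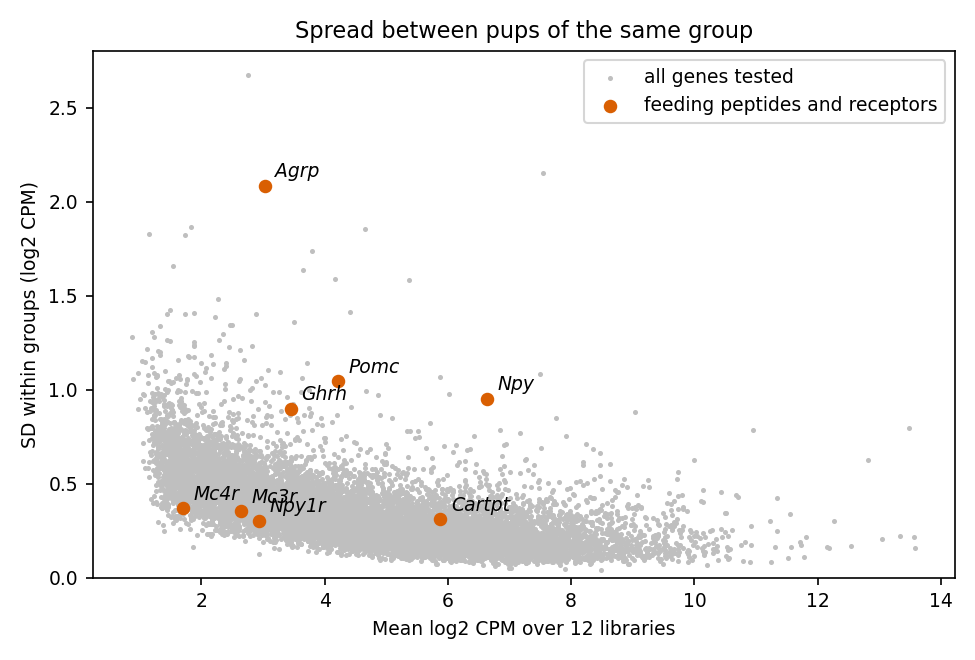
SD of log2 CPM within groups (vertical axis) against mean log2 CPM over the 12 libraries (horizontal axis) for the 13104 genes tested (grey) and the 8 members among them (orange). Agrp, Pomc, Npy and Ghrh lie above most genes of their level, and Cartpt, Mc3r, Mc4r and Npy1r lie among them.

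Npy varied with Pomc and with Ghrh. Over the 10 libraries other than MMS 2 and MMS 4, the correlation of log2 CPM was r = 0.83 for Npy and Pomc (permutation p = 0.00424, 0.0151 after Benjamini-Hochberg adjustment over 10 pairs of peptide genes; rho = 0.84, p = 0.00373, adjusted 0.0373). For Npy and Ghrh it was r = 0.81 (permutation p = 0.00454, adjusted 0.0151; rho = 0.79, p = 0.0092, adjusted 0.046). For Pomc and Ghrh it was r = 0.69, which did not pass the adjustment (permutation p = 0.0274, adjusted 0.0686; rho = 0.76, p = 0.0155, adjusted 0.0516). When the 2 libraries lying farthest from the first gene's median were left out, r was 0.93, 0.78 and 0.66 in the same order. In the controls alone r was 0.80, 0.83 and 0.66, with unadjusted exact permutation p of 0.0847, 0.0417 and 0.165 over 6 libraries and adjusted p of 0.282, 0.208 and 0.352, so no pair passed in the controls alone. The MMS group without MMS 2 and MMS 4 held too few libraries for a value of its own.

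No relation of Cartpt passed. Its r was -0.31 with Npy, -0.39 with Pomc and -0.39 with Ghrh over the same 10 libraries (permutation p = 0.381, 0.262 and 0.263, adjusted 0.381, 0.315 and 0.315). For Agrp no r over the 10 or 12 libraries is given with any gene, since its values fell into separate clusters, and its 3 lower libraries among the 10 were also the 3 lowest of them in Npy. Within the 7 libraries at or above 17 CPM its r was 0.27 with Npy, 0.47 with Pomc, 0.15 with Ghrh and -0.51 with Cartpt (exact permutation p = 0.547, 0.303, 0.752 and 0.248), none of which passed. These libraries span only the upper range of Agrp. Over the 10 libraries Agrp passed with Npy by r (permutation test, adjusted p = 0.0151) but not by rho (permutation test, adjusted p = 0.0784). With Pomc, Ghrh and Cartpt it passed by neither. Across separate clusters such a test largely compares the clusters, so it does not show a relation within them. In those 7 libraries Npy still varied with Pomc (r = 0.92, exact permutation p = 0.00278, adjusted 0.0278) and with Ghrh (r = 0.85, exact permutation p = 0.0133, adjusted 0.0443) by r, but not by rho (0.86 and 0.79, exact permutation p = 0.0238 and 0.048, adjusted 0.119 and 0.16).

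**Figure D4:**
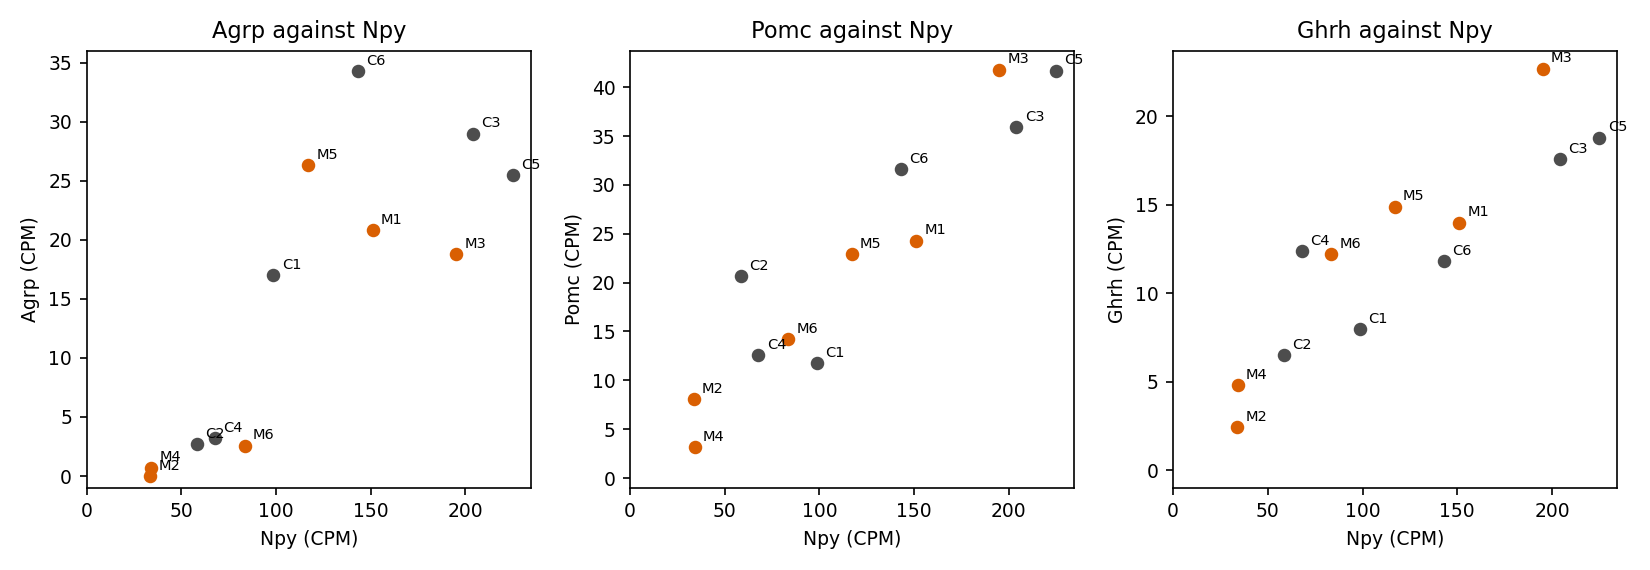
CPM of Agrp, Pomc and Ghrh (vertical axes) against CPM of Npy (horizontal axes) in the 12 libraries (C, control, grey; M, MMS, orange; numbers are replicates). Pomc and Ghrh are higher where Npy is higher, and Agrp splits into 5 libraries at or below 3.21 CPM and 7 at or above 17 CPM.

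The genes most like Npy, Pomc and Ghrh over these 10 libraries, of all non-members tested, are given as a description. They were Gldc (r = 0.94), Rpl37 (0.90) and A330041J22Rik (0.89) for Npy. For Pomc they were Sugp1 (0.92), Isl1 (0.92) and Kcnv1 (0.91), of which Isl1 encodes a transcription factor that arcuate Pomc neurons need. For Ghrh they were Peg10 (0.96), Tdp1 (0.91) and Abhd16a (0.90). With MMS 2 and MMS 4 included all of these likenesses were lower. The genes had been picked for the highest r without these libraries, so some fall is likely. Gldc kept r = 0.78 with Npy, Isl1 had 0.58 with Pomc, and Peg10 turned to -0.49 with Ghrh.

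Several measures stood apart in MMS 2 and MMS 4, the libraries lowest in Agrp, Npy, Pomc and Ghrh, and their part in the spread was not tested. Tbx3, a transcription factor of arcuate neurons and of the ventral midline, was at 2.48 CPM in MMS 4 and 5.10 CPM in MMS 2, against 7.75 to 27.3 CPM in controls, and its lowest 5 libraries shared 3 with those of Agrp. Other genes of arcuate neurons, Isl1, Gal, Th and Tac2, lay within their control ranges in MMS 2 and MMS 4. In MMS 2 they were at 34.4, 52.4, 18.5 and 14.0 CPM, and in MMS 4 at 37.1, 67.6, 16.3 and 13.5 CPM. Reads from a whole hypothalamus do not tell which neurons they came from, so the arcuate share of these genes is not known. Rax, a marker of the tanycytes that line the floor of the third ventricle beside the arcuate nucleus, had no read in MMS 2 and MMS 4 and was at 1.09 to 6.04 CPM in every other library. Of the 6 tanycyte markers 5 were tested, 1 higher and 4 lower in mean in MMS pups (median log2 fold change -0.28). Crym had the smallest p (-0.86 ± 0.38, edgeR adjusted p = 0.543). It was at 8.86 CPM in MMS 2, 6.56 CPM in MMS 4 and 6.44 CPM in MMS 6, against 11.7 to 45.7 CPM in controls. The 10 markers of ciliated ependymal cells, which line the ventricle, summed to 16.1 CPM in MMS 2 and 43.8 CPM in MMS 4, against 90.9 to 206 CPM in the controls and 96.9 to 206 CPM in the other MMS libraries. Among the controls this sum was lowest in Control 5, the highest control in Npy, Pomc and Ghrh, and highest in Control 4, where Agrp was at 3.21 CPM. Its relation to the peptides over the controls was not tested. Of these 10 markers 8 were tested, all lower in mean, with a median of -0.68, and Hydin had the smallest p (-1.23 ± 0.45, edgeR adjusted p = 0.543). By contrast the lateral hypothalamic gene Pmch was highest in the same libraries, at 635 CPM in MMS 2 and 929 CPM in MMS 4, against 195 to 500 CPM in controls. Hcrt, also a lateral hypothalamic gene, was at 155 CPM in both, within the control range of 25.1 to 173 CPM. In a piece of tissue, fewer cells of a type and less RNA per cell cannot be told apart.

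Pomc is also a gene of the pituitary, which lies below the arcuate nucleus. Pou1f1, which defines several pituitary lineages, and Fshb had no count, and Prl had 2 counts over all libraries. Cga, the common subunit of the pituitary glycoprotein hormones, was at 15.4, 23.0, 8.90 and 14.2 CPM in Control 3, Control 6, MMS 1 and MMS 3 and at or below 2.75 CPM elsewhere. All 4 of these libraries were among the 7 with higher Agrp. Gh reached 26.6 CPM in MMS 3 and 11 CPM in MMS 2 and was at or below 3.53 CPM in the others. Tbx19, a factor of the pituitary cells that make Pomc, stayed between 0.215 and 2.52 CPM. It was lowest in Control 1 (0.215 CPM, 1 read) and MMS 4 (0.355 CPM, 2 reads), the lowest libraries of their groups in Pomc. The highest value was in Control 3. With 82 reads of Tbx19 over all libraries, this order is uncertain. In MMS 3 and Control 5, the libraries with most Pomc, it was at 1.21 and 1.7 CPM. Pitx1, also a pituitary marker, was at 1.85, 1.69 and 2.34 CPM in Control 3, Control 6 and MMS 1 and at or below 0.784 CPM elsewhere.

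**Figure D5:**
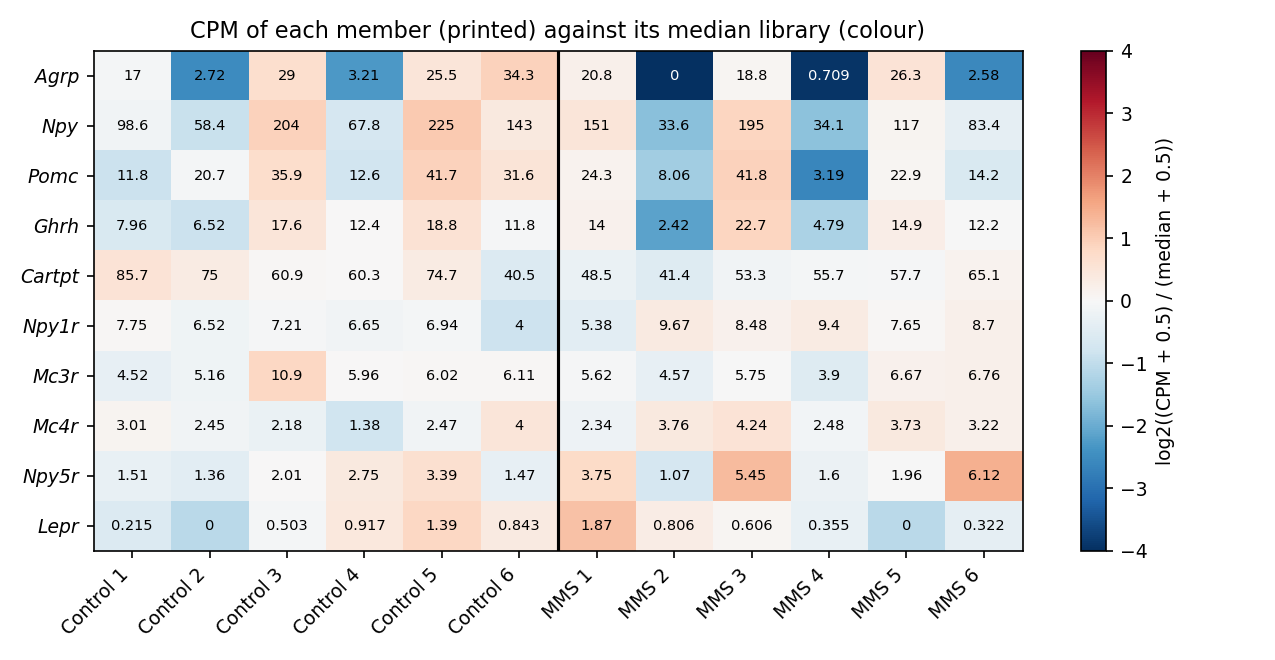
CPM of the 10 genes (rows) in each library (columns, controls left of the line, MMS right), printed in each cell and coloured by log2 of the ratio to the gene's median library after 0.5 CPM was added to both. MMS 2 and MMS 4 are blue in the rows of Agrp, Npy, Pomc and Ghrh and near white in the rows of Cartpt and Npy1r, and Control 2 and Control 4 are low in Agrp and Npy.

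The balance of peptides within a library does not depend on its scaling and was compared as log2 ratios of reads, with 0.5 added to each count. The ratio of Agrp to Pomc, feeding-promoting against feeding-restraining, was -0.86 ± 1.29 in controls and -1.92 ± 2.20 in MMS pups. The difference of -1.06 ± 1.04 (SE) was within the spread (exact permutation test, two-sided, p = 0.374, adjusted over 3 ratios 0.562) and was -0.03 without MMS 2 and MMS 4. The 0 count of Agrp in MMS 2 weighed on it, since it was -0.26 without MMS 2 alone and -0.70 with 2 added to each count. For Agrp to Npy, which the same arcuate neurons make, the difference was -1.24 ± 0.95 (exact permutation p = 0.221, adjusted 0.562) and -0.12 without these libraries, or -0.54 without MMS 2 alone. For Pomc to Cartpt it was -0.40 ± 0.67 (exact permutation p = 0.571, adjusted 0.571) and 0.27 without them. In controls the Agrp to Npy ratio already ran from -4.36 to -2.05, with Control 2 and Control 4 the lowest, so Agrp and Npy were not in a fixed proportion from pup to pup.

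In order of median level the genes were Npy (108 CPM), Cartpt (59.0), Pomc (21.8), Agrp (17.9), Ghrh (12.3), Npy1r (7.43), Mc3r (5.86), Mc4r (2.75), Npy5r (1.99) and Lepr (0.554). The steps that held in all 12 libraries were Cartpt above Pomc, Mc3r above Mc4r and Npy5r above Lepr. Npy was above Cartpt in 9 libraries, and MMS 2 and MMS 4 were among those where it was not. Agrp and Ghrh could not be ordered, with Agrp above Ghrh in 6 of 12 libraries, nor could Mc4r and Npy5r, with Mc4r the higher in 7 of 12.

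Genes that process or relay these signals were described as lists, and none of their members passed an adjusted p of 0.05 (0% of all genes). Of the melanocortin processing and accessory genes 11 of 16 were tested, 6 higher and 5 lower in mean, with a median log2 fold change of 0.04. They include the convertase Pcsk1 (32.9 ± 5.19 and 27.0 ± 10.2 CPM, adjusted p = 0.65), which makes the first cuts in Pomc, and carboxypeptidase E (Cpe), which trims the products (2800 ± 321 and 2450 ± 496 CPM, edgeR adjusted p = 0.62). Mgrn1, a ubiquitin ligase linked to melanocortin receptor signalling, had the smallest p of this list (122 ± 11.5 and 153 ± 24.3 CPM, log2 fold change 0.32 ± 0.11, edgeR adjusted p = 0.543). It was the only one of the 11 with an unadjusted p under 0.05, where 4.68% of all genes were higher and 4.4% lower at that p.

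Of the other NPY family genes only Npy2r, the autoreceptor of Npy neurons, was tested (22.9 ± 3.43 and 20.9 ± 4.65 CPM, edgeR adjusted p = 0.78). Of the leptin signalling genes 12 of 14 were tested, 5 higher and 7 lower in mean, with a median of -0.07, and none reached an unadjusted p of 0.05. Those with the smallest p were Stat5a (log2 fold change 0.78 ± 0.39, adjusted p = 0.555), Stat3 (0.29 ± 0.15, adjusted p = 0.556) and Leprot, which shares its first exons with Lepr (-0.27 ± 0.14, edgeR adjusted p = 0.564). Leprot was at 42.2 ± 3.88 CPM in controls and so far above Lepr itself.

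Of the growth hormone and ghrelin genes 8 of 12 were tested, 3 higher and 5 lower in mean, with a median of -0.16. The somatostatin receptor gene Sstr2 was at 7.45 ± 2.42 CPM in controls against 12.2 ± 3.09 CPM in MMS pups (log2 fold change 0.70 ± 0.24, edgeR adjusted p = 0.543), with 5 of 6 MMS libraries above every control. The growth hormone receptor gene Ghr was at 25.4 ± 5.16 and 18.3 ± 4.47 CPM (log2 fold change -0.48 ± 0.18, edgeR adjusted p = 0.543). These were 2 of the 8 with an unadjusted p under 0.05, against 4.68% of all genes higher and 4.4% lower, and neither passed the adjusted test.

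Of the arcuate transcription factors 9 of 13 were tested, 2 higher and 7 lower in mean, with a median of -0.24. Hmx3 was at 4.77 ± 0.841 and 3.15 ± 0.631 CPM (log2 fold change -0.59 ± 0.27, adjusted p = 0.543) and Tbx3 was at 18.5 ± 7.07 and 10.6 ± 6.77 CPM (log2 fold change -0.84 ± 0.42, edgeR adjusted p = 0.56). Of the other arcuate markers 6 of 7 were tested, 2 higher and 4 lower, with a median of -0.17. Pnoc, the gene of the opioid-like peptide nociceptin, had the smallest p of all the lists. It was at 61.2 ± 7.24 CPM in controls against 85.4 ± 10.8 CPM in MMS pups, and its lowest MMS library lay above its highest control. In 0.389% of all genes the groups did not overlap in one direction or the other. Its log2 fold change of 0.48 ± 0.11 did not pass the adjusted test (edgeR adjusted p = 0.375). Slc6a3, the dopamine transporter gene (8.40 ± 8.47 and 3.53 ± 2.04 CPM, edgeR adjusted p = 0.566), and Th, for dopamine synthesis (21.2 ± 11.6 and 17.6 ± 3.21 CPM, edgeR adjusted p = 0.736), came next in this list.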

How the data were processed

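RNA from the hypothalamus of 12 P6 pups was made into 3' mRNA libraries with the QuantSeq kit and sequenced on an Ion Proton. The authors aligned the reads to mm10 and deposited raw counts per gene, 1 column per library, not normalised and not pooled. How reads were assigned to genes (tool, strand, multiple matches, annotation) is not given in the sources used here. Of the counts, 0.175% lay in 27 rows whose symbols had become calendar dates, and these rows were kept without a name. Libraries were grouped by title. Pairs within a group differed by more than sampling noise (chi-square per degree of freedom 4.04 to 31.5 over 30 pairs), so all were kept as separate samples.

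Group differences over the whole table came from edgeR 4.0.16 quasi-likelihood fits (R 4.3.3; robust dispersion, TMM scaling, filterByExpr with min.count 10 and min.total.count 15), two-sided and adjusted by Benjamini-Hochberg over 13104 genes, after a check on simulated counts with 200 changed genes. Log2 CPM had a prior count of 2. Exact permutation tests used 924 ordered splits, and correlations 100000 permutations (exact for 6 or 7 libraries) in scipy 1.17.1. Alternatives used DESeq2 1.42.0, limma 3.58.1 and sva 3.50.0. The surrogate variable was estimated from CPM after a first run on unscaled counts, a change made after its output had been seen. Coordinates are 1-based from GENCODE on GRCm38, the same build as mm10. The 10 genes, the 15 lists and the libraries left out together were chosen with earlier results of these data known. Named from each list were up to 3 tested genes with the smallest p, and for likeness the 3 genes with the highest r. A few genes that these rules name are not reported here. Beyond these rules Sst, Pitx1, Rax, Cga, Gh, Prl, Pou1f1, Fshb, Tbx19, Kiss1, Bsx, Gal and Tac2 were named after their values had been seen. P-values measure the spread between pups and ignore litter.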

Additional observations from a re-analysis of the deposited data

Results flagged for a closer look

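In 26 sets of 6 library values, the 10 genes and 3 ratios in each group, the highest or lowest library was compared with the rest by the share of the range that separated it from its nearest neighbour, against Dixon's 95% critical value. Of these sets 2 exceeded it, where chance alone gives about 1.3. Mc3r was at 10.9 CPM in Control 3, whose gap took 0.751 of the control range, and the other controls lay between 4.52 and 6.11 CPM. Without Control 3 the log2 fold change of Mc3r was -0.01. Npy1r was at 4.00 CPM in Control 6, whose gap took 0.672 of the range, with the other controls between 6.52 and 7.75 CPM. Control 6 was also the lowest control for Cartpt (40.5 CPM) and the highest for Agrp (34.3 CPM).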

How the results depend on the processing

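None of the 8 genes tested passed an adjusted p of 0.05 under any of the 21 alternatives. The count of them lower in MMS at an unadjusted p under 0.05, 0 in edgeR, was 1 with no count filter (Cartpt) and 1 with the replicate block (Npy, log2 fold change -0.48, edgeR adjusted p = 0.507). It was 0 to 1 when single libraries were left out, 1 without Control 6 (Cartpt, log2 fold change -0.40) and 1 without MMS 6 (Cartpt, -0.36). Libraries of the same number showed no clear pairing over all genes, with correlations of -0.0476 to 0.116. Of 6 libraries 2 were closest to their own number, so the block is given here only. The check could miss a shared litter. Under 1 surrogate variable Agrp (0.04), Npy (0.08), Pomc (0.0017) and Ghrh (0.38) turned to higher values. Ghrh was also 0.25 with an ependymal score as covariate. Left out singly, libraries moved Ghrh between -0.39 and 0.10 (0.007 without Control 3, 0.05 without Control 5, 0.10 without MMS 2, 0.07 without MMS 4), Agrp between -1.15 and -0.42, Npy between -0.67 and -0.16, and Pomc between -0.84 (without MMS 3) and -0.22 (without MMS 4). In limma-voom Agrp was -1.88, Pomc -0.83 and Ghrh -0.42. Without both MMS 2 and MMS 4 Npy was 0.03 and Ghrh 0.32, and the log2 ratio of Pomc to Cartpt turned to 0.27. Left out singly, libraries moved that ratio between -0.70 and 0.05, the latter without MMS 4. For Lepr edgeR with no count filter gave an unadjusted p of 0.975 against 0.972 in the exact permutation test, and a log2 fold change of the opposite sign, -0.02. The cause of these changes was not tested. Cartpt (-0.40 to -0.22), Mc3r (-0.32 to -0.01), Mc4r (0.22 to 0.51) and Npy1r (0.20 to 0.44) kept their direction under all 21 alternatives. Over all genes DESeq2 called 7, the block 1, no count filter 1, the surrogate variable 4, the ependymal score 3 and leaving out MMS 2 and MMS 4 together 5, against 0 in edgeR and 0 in limma-voom. Depth limits Lepr, Npy5r and Mc4r, with at most 9, 22 and 19 reads in a library.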

Other observations

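Markers of the regions around the arcuate nucleus are given as counts, and none passed an adjusted p of 0.05 in edgeR. The 5 paraventricular markers were all higher in mean in MMS pups (median log2 fold change 0.27; Sim1 11.6 ± 1.97 and 13.9 ± 2.12 CPM, edgeR adjusted p = 0.637), and their sum ranged from 258 to 945 CPM in controls and from 319 to 1080 CPM in MMS pups. The 3 lateral hypothalamic markers were also higher in mean (median 0.36; Pmch 375 ± 120 and 487 ± 251 CPM, edgeR adjusted p = 0.725). Of the 4 ventromedial markers 2 were higher and 2 lower (median -0.01), with Fezf1 at 23.8 ± 4.82 and 32.6 ± 9.47 CPM (edgeR adjusted p = 0.543). Of the telencephalic markers 5 of 7 were tested, 3 higher and 2 lower (median 0.34). The 2 with the smallest p were the lower ones, Neurod2 (log2 fold change -0.98 ± 0.52, edgeR adjusted p = 0.564) and Neurod6 (-0.81 ± 0.47, edgeR adjusted p = 0.596), while the sum of the list was highest in MMS 2 (92.7 CPM). Of the 5 thalamic markers 3 were higher and 2 lower (median 0.07), with sums from 113 to 578 CPM over all libraries. Of the 5 pan-neuronal genes 3 were higher and 2 lower (median 0.06). Among these Tubb3 was at 3160 ± 175 CPM in controls against 2260 ± 854 CPM in MMS pups (log2 fold change -0.49 ± 0.21, edgeR adjusted p = 0.543), with 4 of 6 MMS libraries below every control.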
